A study of Bos taurus with 90 samples.

Results

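miR-143 and miR-145 are 2 microRNAs (miRNAs, short RNAs that lower the output of target mRNAs) whose hairpins are cut from 1 shared transcript. They were picked by name, and they are 2 of the 388 miRNAs measured in at least 1 of 5 cow tissues and 2 of the 289 measured in all 5. The 90 small RNA libraries came from mid-lactation Chinese Holstein dairy cows fed a diet based on alfalfa hay, corn stover (the stalks and leaves left after maize harvest) or rice straw. Rumen, duodenum and jejunum, all 3 labelled as epithelium, and liver and mammary gland were taken from every cow, which gave 18 libraries a tissue and 6 for each diet in it. The alfalfa hay diet served as the reference forage against the 2 crop residues. Each library was a piece of frozen, ground tissue from 1 animal, so it held all the cell types of that piece.

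The pair is known as a smooth muscle signature. In many organs it is most abundant in smooth muscle cells, pericytes and fibroblasts and low in most epithelial cells, its transcription is driven by serum response factor and myocardin, and its targets include regulators that keep smooth muscle cells proliferating rather than contractile. In a gut wall the muscle layers and the blood vessels hold most of such cells, while in liver and mammary gland they are found mainly around vessels and ducts. In the RefSeq annotation of the assembly ARS-UCD2.0 both hairpin genes lie on the same chromosome, with 0 genes wholly between them.

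Expression is given as CPM, the usual count unit of sequencing, in which the reads of a miRNA are scaled by the reads mapped to all annotated miRNAs of that library and a whole library adds up to a fixed total. Mapped reads ranged from 937556 to 15621501 a library, with a median of 5778304.5, and the 3 libraries under 2000000 reads were all from mammary gland. The tissue labels were set against marker miRNAs. miR-122, the hepatocyte miRNA, was at 8671 to 12721 CPM in liver, at 0 to 48.5 CPM in mammary gland, and was not listed in the other 3 tissues. The gut epithelium miRNAs miR-192, miR-194 and miR-215 together made 231619 to 411412 CPM in duodenum and 144396 to 305331 CPM in jejunum. They made 2598 to 4561 CPM in rumen and 1905 to 3714 CPM in mammary gland. In liver they made 122056 to 195995 CPM, which overlapped jejunum, so this sum does not tell jejunum from liver. The squamous epithelium markers miR-205 and miR-31 made 25814 to 54759 CPM in rumen. miR-133a, a miRNA of muscle cells, was found in all 18 libraries of each of the 3 epithelium-labelled tissues, at 20.2 to 125.8 CPM in rumen, 135.7 to 388 CPM in duodenum and 211 to 432 CPM in jejunum. Its median in rumen, 49.8 CPM, was below those of liver (156 CPM) and mammary gland (126 CPM), and which cells it came from was not tested.

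miR-143 was among the most abundant miRNAs in every tissue. Ranked by mean CPM it was first in rumen, jejunum and mammary gland, number 2 in duodenum and number 3 in liver. It took between 6.94% and 29.5% of the miRNA reads of a library, and its rank within a single library ran from 1 to 5. miR-145 was far lower, from 0.0336% to 0.605% of the reads, and its rank within a library ran from 27 to 84.

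miR-143 was highest in jejunum. The lowest, median and highest of 18 libraries were 143429, 204146 and 294801 CPM in jejunum. They were 115693, 179300 and 241395 CPM in rumen and 104281, 154615 and 212623 CPM in duodenum. All 3 ranges overlapped widely, and the highest jejunum library was a corn stover one. In mammary gland the 3 values were 69396, 124723 and 226993 CPM, and in liver they were 81811, 124174 and 177119 CPM. The means ± SD over 18 libraries were 210856 ± 42390 CPM in jejunum, 174372 ± 32389 in rumen, 160854 ± 29692 in duodenum, 146172 ± 45696 in mammary gland and 126623 ± 28558 in liver. No 2 tissues were separated, since every range overlapped every other. Bulk tissue does not tell fewer cells of a type from less of the RNA in each cell, and this holds for every level given here.

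miR-145 split the tissues in another way, with the 3 gut tissues high, mammary gland between and liver low. Its lowest, median and highest values were 1345, 2410 and 3762 CPM in jejunum, and 1342, 2194 and 3254 CPM in duodenum. In rumen they were 1032, 2220 and 6053 CPM. The rumen maximum came from alfalfa hay library 1, the next rumen value was 3928 CPM in alfalfa hay library 5, and these 2 were above every library of duodenum and jejunum. Mammary gland gave 336, 1307 and 2422 CPM, and liver gave 394, 513 and 1016 CPM. Every liver library was below every rumen, duodenum and jejunum library, whereas liver and mammary gland overlapped, with 13 of 18 mammary libraries above the whole liver range. Such complete separation, liver below, was met by 24.6% of the 289 miRNAs against rumen, 26.6% against duodenum and 21.8% against jejunum. The means ± SD were 2384 ± 692 CPM in jejunum, 2296 ± 1168 in rumen, 2241 ± 499 in duodenum, 1226 ± 535 in mammary gland and 586 ± 170 in liver.

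**Figure D1:**
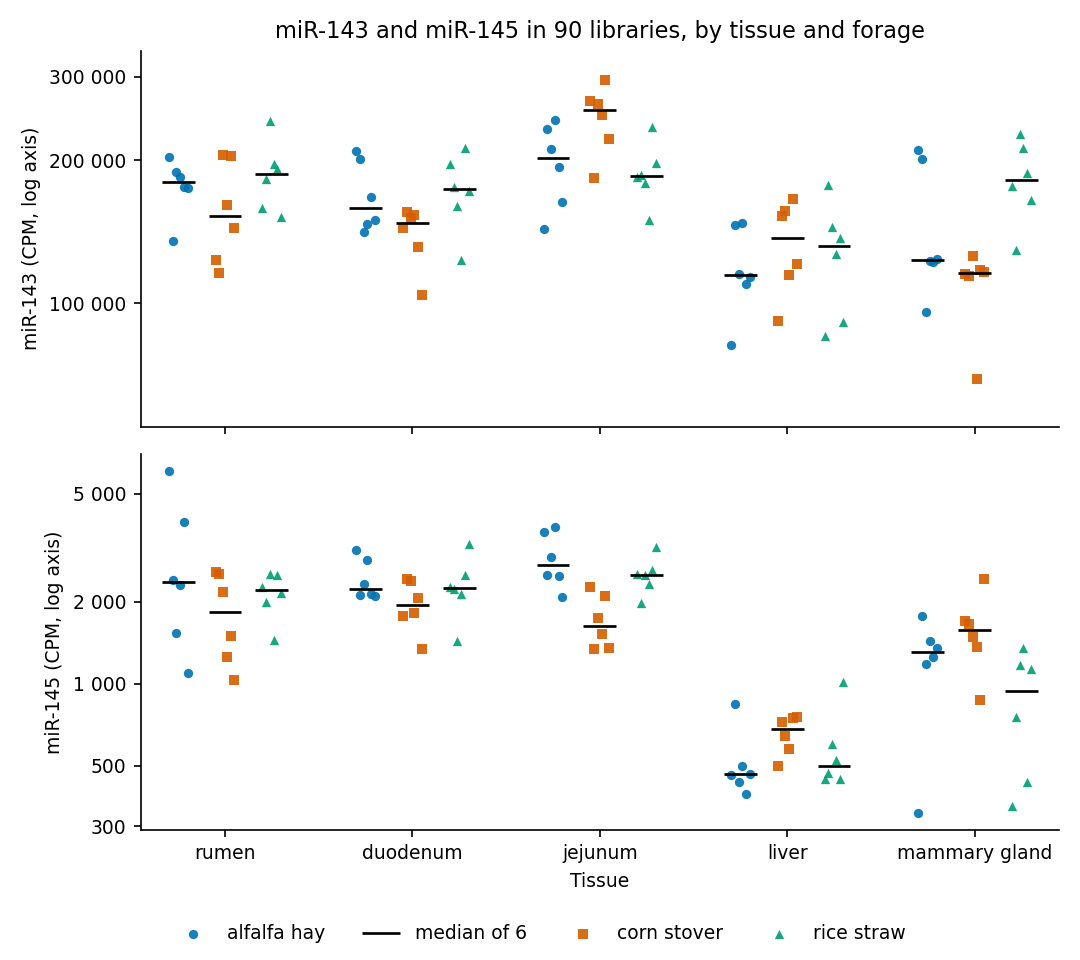
CPM of miR-143 and of miR-145 on log axes in each of 90 libraries, by tissue and diet, 1 point a library, with a black bar at the median of the 6 libraries of a diet. miR-143 overlaps between all tissues, while the miR-145 points of liver, 394 to 1016 CPM, lie below all those of rumen, duodenum and jejunum.

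The tissues were compared with limma (a linear model fitted to all 289 miRNAs, with diet as a term) on log2(CPM + 1), with p-values adjusted by the Benjamini-Hochberg method over the miRNAs of each comparison and called below 0.05. Since 1 cow gave all 5 tissues and the libraries were treated as independent, the p-values describe the spread between libraries. Between tissues most miRNAs differed, so the share of all miRNAs called is given with each comparison, and so is the median difference of all miRNAs where it moved away from 0, because CPM are shares of a total.

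For miR-145 the liver was the clear case. Its expression was lower in liver than in rumen by a log2 difference of 1.88 (SE 0.18, rumen minus liver, limma adjusted p = 9.06e-17), than in duodenum by 1.95 (adjusted p = 1.89e-17) and than in jejunum by 2.01 (adjusted p = 3.96e-18), a ratio of 3.68 to 4.04 on the CPM + 1 scale. The medians of all miRNAs in these comparisons were 0.47, 0.36 and 0.42, and relative to them miR-145 stood 1.41, 1.59 and 1.60 higher in the gut tissues. The calls covered 83.0%, 82.0% and 83.0% of the miRNAs. These 3 differences kept sign and call under every alternative run, which covered the pseudocount, the scaling, the test, the block and each diet alone. Relative to mammary gland, miR-145 was higher in rumen by 0.94 (adjusted p = 1.89e-06, 83.0% of miRNAs called), in duodenum by 1.01 (adjusted p = 4.72e-07, 79.9% called) and in jejunum by 1.07 (adjusted p = 1.09e-07, 78.5% called). It was lower in liver than in mammary gland by a difference of -0.94 (liver minus mammary gland, adjusted p = 2.62e-06, 69.2% called). Without the 3 mammary libraries under 2000000 reads, which held the lowest miR-145 values of that tissue, the differences were 0.63, 0.70, 0.76 and -1.25, and all 4 kept their call. Within corn stover alone the 3 gut tissues did not pass against mammary gland, at 0.20, 0.35 and 0.16 (limma adjusted p = 0.421, 0.145 and 0.534). Within rice straw alone the liver difference was -0.47 (adjusted p = 0.142).

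Among the 3 gut tissues no difference of miR-145 passed. The rumen minus duodenum difference was -0.07 (limma adjusted p = 0.737) while 71.6% of miRNAs were called, the rumen minus jejunum difference was -0.13 (adjusted p = 0.507) while 74.0% were called, and the duodenum minus jejunum difference was -0.06 (adjusted p = 0.881) with 10.4% called. Under trimmed mean of M values (TMM) scaling rumen was lower than duodenum (-0.33, limma adjusted p = 0.0350) and jejunum (-0.35, adjusted p = 0.0255), and under upper-quartile scaling lower than jejunum (-0.30, adjusted p = 0.0443). In the order jejunum, rumen, duodenum, mammary gland and liver, miR-145 in CPM was called at the steps from duodenum to mammary gland and from mammary gland to liver only. The libraries overlapped at both steps.

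miR-143 passed in 7 of the 10 tissue comparisons too, but its differences were smaller and most of them depended on how the libraries were scaled. Jejunum exceeded liver by 0.74 (SE 0.11, limma adjusted p = 2.90e-09), mammary gland by 0.57 (adjusted p = 3.03e-06), duodenum by 0.39 (duodenum minus jejunum -0.39, adjusted p = 0.0119) and rumen by 0.27 (rumen minus jejunum -0.27, adjusted p = 0.0229). Rumen exceeded liver by 0.47 (adjusted p = 6.58e-05) and mammary gland by 0.30 (adjusted p = 0.0110), and duodenum exceeded liver by 0.36 (adjusted p = 0.00218). The median of all miRNAs took up nearly all of these last 3, which came to 0.01, -0.04 and -0.00 relative to it. Rumen minus duodenum (0.12, adjusted p = 0.344), duodenum minus mammary gland (0.18, adjusted p = 0.120) and liver minus mammary gland (-0.18, adjusted p = 0.145) did not pass. In the order jejunum, rumen, duodenum, mammary gland and liver, only the step from jejunum to rumen was called in CPM over all libraries. Without the 3 mammary libraries under 2000000 reads the step from duodenum to mammary gland was called too (0.26, limma adjusted p = 0.0264).

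Scaling is the main limit on the miR-143 levels. Under upper-quartile scaling rumen minus liver became -0.24, and duodenum minus liver became -0.17. Under TMM scaling the rumen minus liver value was 0.02. The share of called miRNAs that were higher in rumen than in liver was 65.4% in CPM, 52.1% under TMM and 43.6% under upper-quartile scaling. The lower level in rumen than in jejunum was called in CPM, under TMM (-0.49), under upper-quartile scaling (-0.44) and in both count tests. Fitted within each diet it was called in corn stover (-0.65, limma adjusted p = 0.000829) but not in alfalfa hay (-0.15, adjusted p = 0.516) or rice straw (-0.01, adjusted p = 0.949). The comparisons of jejunum with liver, mammary gland and duodenum kept their sign in these alternatives and lost the call in some of them. For jejunum minus liver this was under upper-quartile scaling (limma adjusted p = 0.277). For jejunum minus mammary gland the losses included DESeq2 on the recovered reads (adjusted p = 0.148). For duodenum minus jejunum they included TMM (limma adjusted p = 0.162) and upper-quartile scaling (limma adjusted p = 0.145), edgeR (adjusted p = 0.128) and DESeq2 (adjusted p = 0.107). Counted over all alternatives, each diet alone included, jejunum minus mammary gland lost the call in 2 and duodenum minus jejunum in 6.

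The ratio of miR-143 to miR-145 within a library does not depend on scaling. It counts reads of miR-143 per read of miR-145, and since small RNAs differ in how well they enter a library, its absolute size is not a ratio of molecules. The lowest, median and highest ratio over 18 libraries was 51.3, 74.5 and 111 in duodenum, 39.6, 84.0 and 164 in jejunum, and 33.6, 85.8 and 160 in rumen. In mammary gland it was 48.0, 105 and 626, and in liver 89.7, 231 and 378. Of the 18 liver libraries, 17 lay above every duodenum library and 17 above every rumen library, while the mammary range covered nearly all the others. On the log2 scale the mean was 7.77 in liver, 7.00 in mammary gland, 6.50 in jejunum, 6.36 in rumen and 6.18 in duodenum.

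The liver ratio was above that of rumen by 1.41 (SE 0.19) on the log2 scale, of duodenum by 1.59 (SE 0.13) and of jejunum by 1.27 (SE 0.17), each with the smallest p that 100000 permutations of 18 against 18 libraries can give in this two-sided test (2e-05, adjusted over 10 comparisons 6.67e-05). It was above that of mammary gland by 0.77 (permutation test, adjusted p = 0.0184), and the mammary ratio was above that of duodenum (duodenum minus mammary gland -0.83, permutation test, adjusted p = 0.00410). The mammary ratio did not pass against rumen (-0.64, permutation test, adjusted p = 0.0593) or jejunum (-0.51, adjusted p = 0.106), nor did duodenum minus jejunum (-0.32, adjusted p = 0.0593), rumen minus duodenum (0.18, adjusted p = 0.325) or rumen minus jejunum (-0.14, adjusted p = 0.510). In the order liver, mammary gland, jejunum, rumen and duodenum, only the step from liver to mammary gland was therefore called. The liver and mammary gland libraries overlapped at that step. The excess of liver over the 3 gut tissues also passed within each diet in exact permutation tests of 6 against 6 libraries, where its log2 size was 0.48 (jejunum, corn stover) to 1.77 (jejunum, alfalfa hay) with adjusted p from 0.00541 to 0.0144. The comparisons with mammary gland differed in size or sign between diets. Duodenum minus mammary gland was -0.88 in alfalfa hay and -1.61 in rice straw (exact permutation test, adjusted p = 0.0260 and 0.00722), but 0.01 in corn stover (adjusted p = 0.985). Rumen minus mammary gland was -1.42 in rice straw (exact permutation test, adjusted p = 0.00722), and it did not pass in alfalfa hay (-0.84, adjusted p = 0.254) or corn stover (0.32, adjusted p = 0.426). Jejunum minus mammary gland was -0.90 in alfalfa hay, -1.64 in rice straw and 1.02 in corn stover (exact permutation test, adjusted p = 0.0260, 0.00722 and 0.00866), so that the sign turned with diet. Liver minus mammary gland was 1.50 in corn stover (exact permutation test, adjusted p = 0.00541), 0.87 in alfalfa hay (adjusted p = 0.188) and -0.08 in rice straw (adjusted p = 0.890). The mammary values in alfalfa hay and rice straw include the 3 libraries under 2000000 reads. Without these the mammary mean log2 ratio was 6.54 in alfalfa hay and 7.37 in rice straw. In liver the means were 7.87 and 7.79, so that the sign in rice straw turned. The within-diet tests between tissues were not repeated without these libraries.

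**Figure D2:**
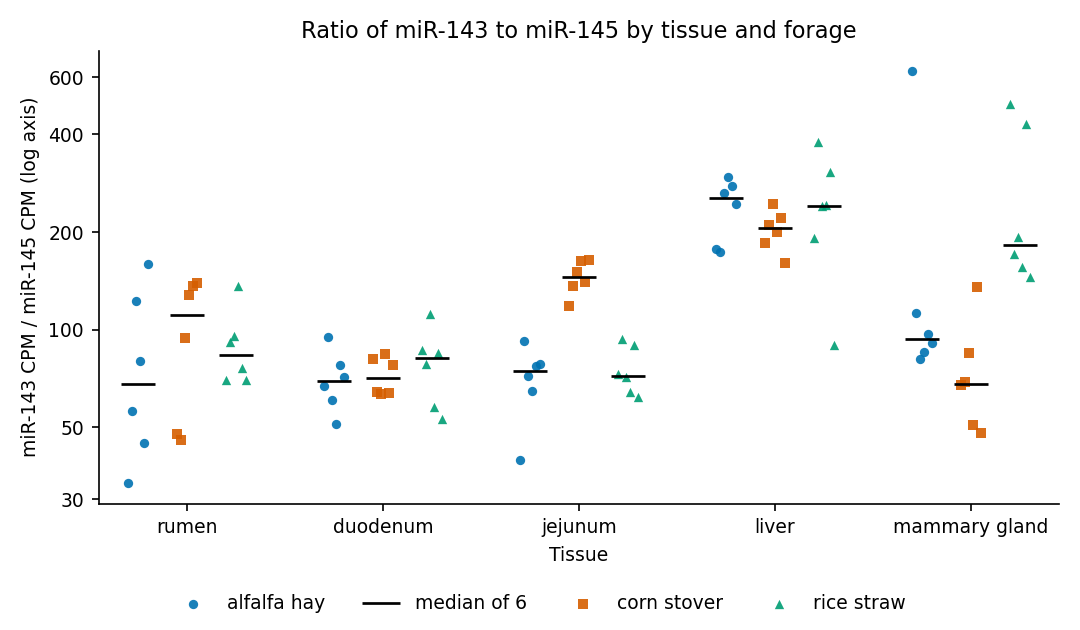
Reads of miR-143 per read of miR-145 (log axis) in each of 90 libraries, by tissue and diet, 1 point a library, with a black bar at the median of the 6 libraries of a diet. Liver is high in all 3 diets, corn stover stands above the other diets in jejunum (118 to 164), and in mammary gland it stands below rice straw (48.0 to 135 against 145 to 497).

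Between diets the pair showed called differences in jejunum and mammary gland. In the other 3 tissues none of the 9 comparisons passed for either miRNA, where limma was fitted to all miRNAs of the tissue. In rumen the adjusted p ran from 0.603 to 0.921 for miR-143 and from 0.460 to 0.935 for miR-145. The share of all miRNAs called was also small, at 0% between alfalfa hay and corn stover, 2.65% between alfalfa hay and rice straw and 0% between corn stover and rice straw. In duodenum and liver 0% were called in all 6 comparisons, and the lowest adjusted p of the pair were 0.346 (miR-143, duodenum) and 0.602 (miR-145, duodenum). The miR-143 to miR-145 ratio did not pass in these tissues either, with log2 differences between -0.32 and 0.21 (exact permutation tests of 6 against 6, adjusted over 15 comparisons, adjusted p of 0.541 or more).

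In jejunum the balance of the pair differed with corn stover. miR-145 was at 1345, 1634 and 2261 CPM (lowest, median and highest of 6) with corn stover, at 2087, 2727 and 3762 CPM with alfalfa hay, and at 1978, 2518 and 3184 CPM with rice straw. The corn stover libraries were low, with 4 of 6 below every alfalfa hay library and 4 of 6 below every rice straw library, and the ranges met at the edges. miR-143 went the other way, at 183108, 255356 and 294801 CPM with corn stover, 143429, 202326 and 243032 CPM with alfalfa hay and 149597, 184847 and 235078 CPM with rice straw, with 4 of 6 corn stover libraries above every library of each other diet.

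miR-145 was higher with alfalfa hay than with corn stover by 0.75 (SE 0.16, limma adjusted p = 0.00251), a ratio of 1.68, in a comparison in which 22.0% of 337 miRNAs were called. It was lower with corn stover than with rice straw by a difference of -0.57 (adjusted p = 0.0149), where 28.8% were called, and alfalfa hay minus rice straw was 0.18 (adjusted p = 0.819), where 0% were called. The medians of all miRNAs in the first 2 were 0.18 and -0.18, which left 0.58 and -0.39. The alfalfa hay minus corn stover value held its call in every alternative and with any 1 library left out. The corn stover minus rice straw call was lost under TMM (limma adjusted p = 0.0884), with miR-143 taken out of the total (0.0722), in edgeR (0.0970) and in DESeq2 (0.0554), with the sign kept. The share of called miRNAs that were higher with alfalfa hay than with corn stover was 63.5% in CPM and 36.1% under TMM, and for corn stover over rice straw 32.0% and 64.3%.

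miR-143 did not pass in jejunum in CPM, at -0.32 (SE 0.15, limma adjusted p = 0.116) for alfalfa hay minus corn stover, 0.38 (adjusted p = 0.0611) for corn stover minus rice straw and 0.06 (adjusted p = 0.951) for alfalfa hay minus rice straw. The first 2 passed under TMM (limma adjusted p = 0.0173 and 0.00823), in edgeR (adjusted p = 0.0202 and 0.00903) and in DESeq2 (adjusted p = 0.0149 and 0.00326). The second also passed without rice straw library 5 (0.45, limma adjusted p = 0.0355), alfalfa hay library 1 (adjusted p = 0.0477) or corn stover library 2 (adjusted p = 0.0284).

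The jejunum ratio was separated. Corn stover libraries had 118 to 164 reads of miR-143 per read of miR-145 with a median of 145, alfalfa hay libraries 39.6 to 92.4 with a median of 74.7, and rice straw libraries 61.9 to 93.9 with a median of 72.2. All 6 corn stover libraries were above all 12 others, and whether other miRNA pairs were separated in this way was not counted. The log2 ratio was higher with corn stover than with alfalfa hay (alfalfa hay minus corn stover -1.07, SE 0.19) and than with rice straw (corn stover minus rice straw 0.95, SE 0.12), both with an exact permutation p of 0.00216, the smallest that 6 against 6 libraries allow, and an adjusted p of 0.0108 over the 15 comparisons. Alfalfa hay minus rice straw was -0.13 (exact permutation test, adjusted p = 0.837). Both differences were called with any 1 library left out. As differences of medians they were about as large, -0.96 and 1.01, but did not pass (exact permutation test, adjusted p = 0.0649 for both). Exchanging the libraries nearest the other group leaves both medians unchanged. The test of medians therefore could not pass here even for fully separated groups of 6, and it cannot decide. With libraries of the same number taken as pairs, the adjusted p of the exact sign-flip test was 0.156 for both. That test cannot decide here, since its p with 6 pairs is never below 0.0312 before the adjustment over 15 comparisons. The same number also stands for different cows in different diets.

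Other miRNAs of vessels and connective tissue moved in CPM in the same jejunum comparisons, in which 22.0% and 28.8% of all miRNAs were called. These list calls were not repeated under TMM. There the share of called miRNAs higher with alfalfa hay than with corn stover was 36.1%, against 63.5% in CPM. The 2 endothelial miRNAs of the miR-126 hairpin summed to 8000 to 17708 CPM with corn stover, below 18498 to 28030 CPM with alfalfa hay and 19516 to 29441 CPM with rice straw, and both were called lower with corn stover in both comparisons. How many miRNAs of jejunum were separated between diets in this way was not counted. Of 10 miRNAs of stroma (fibroblasts and other connective tissue), 5 were called lower with corn stover than with alfalfa hay and 5 than with rice straw, among them miR-100 by 1.71 (alfalfa hay minus corn stover, limma adjusted p = 2.40e-06) and miR-125b by 0.67 (adjusted p = 0.00331). The 8 miRNAs that regulate vascular smooth muscle went both ways. Of them 4 were called lower and 2 higher with corn stover than with alfalfa hay, and 3 lower and 1 higher than with rice straw. Of 5 muscle miRNAs measured, miR-1 was called lower with corn stover in both comparisons and the other 4 were in neither, and the sums of the 5 overlapped, at 326 to 452 CPM with corn stover, 320 to 652 with alfalfa hay and 382 to 453 with rice straw. None of 5 epithelial miRNAs of the miR-200 family was called, and of 7 immune cell miRNAs 2 were called lower with corn stover than with alfalfa hay and 3 than with rice straw. The part of these in the miR-145 difference was not tested.

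In mammary gland the difference lay between corn stover and rice straw. miR-143 was at 69396, 115648 and 125803 CPM with corn stover, 95798, 123022 and 210449 CPM with alfalfa hay and 129257, 181877 and 226993 CPM with rice straw. All 6 corn stover libraries were below all 6 rice straw libraries, a pattern that 0.610% of the 328 mammary miRNAs (2 of them) showed. Separation in the other direction, with corn stover above, was not counted. miR-145 was at 870, 1573 and 2422 CPM with corn stover, 336, 1310 and 1783 CPM with alfalfa hay and 355, 944 and 1354 CPM with rice straw, and these ranges overlapped, with 5 of 6 corn stover libraries above every rice straw library.

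miR-143 was lower with corn stover than with rice straw by a difference of -0.74 (SE 0.23, limma adjusted p = 0.0276), and 25.0% of miRNAs were called. Most of those called were higher with corn stover, 77 of 82, and the median of all miRNAs was 0.63, so that relative to it miR-143 stood at -1.37. The share higher with corn stover was 93.9% of the called in CPM, 42.1% under TMM and 24.4% under upper-quartile scaling, while miR-143 was lower and called under each of these (-1.50 under TMM and -1.66 under upper-quartile scaling). The call was lost without rice straw library 5 (-0.73, limma adjusted p = 0.0588) and without corn stover library 4 (-0.61, adjusted p = 0.0684). Without the 3 libraries under 2000000 reads it was -0.73 (adjusted p = 0.0245). In the same comparison in CPM, 2 of 5 muscle, 3 of 10 stroma, 1 of 2 endothelial and 3 of 5 epithelial miRNAs were called higher with corn stover. So were 2 of 3 red blood cell miRNAs and 2 of 8 that regulate vascular smooth muscle. Of 7 immune cell miRNAs 3 were called higher and 1 lower. The part of all these in the miR-143 difference was not tested. The comparisons of alfalfa hay with corn stover (0.38, adjusted p = 0.464, 0% called) and with rice straw (-0.36, adjusted p = 0.560, 0% called) did not pass.

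miR-145 did not pass in mammary gland. Corn stover minus rice straw was 0.97 (SE 0.41, limma adjusted p = 0.0818), alfalfa hay minus corn stover was -0.47 (adjusted p = 0.520) and alfalfa hay minus rice straw was 0.51 (adjusted p = 0.664). Relative to the median of all miRNAs the first was 0.34, and under upper-quartile scaling it was 0.05. It was called without alfalfa hay library 1 (0.97, limma adjusted p = 0.0263) and without rice straw library 3 (1.09, adjusted p = 0.0496), and without all 3 libraries under 2000000 reads it was 0.49 (adjusted p = 0.185).

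The mammary ratio was 48.0, 68.1 and 135 with corn stover (lowest, median and highest), 81.0, 93.9 and 626 with alfalfa hay, and 145, 182 and 497 with rice straw. All corn stover libraries were below all rice straw libraries, and 5 of 6 alfalfa hay libraries were too. Here too, whether other miRNA pairs were separated in this way was not counted. Corn stover minus rice straw was -1.71 (SE 0.39) on the log2 scale, with an exact permutation p of 0.00216, the smallest possible, and an adjusted p of 0.0108. Alfalfa hay did not pass against corn stover (0.84, exact permutation test, adjusted p = 0.317) or rice straw (-0.87, adjusted p = 0.461). The alfalfa hay result rested on library 1, without which the difference from rice straw was -1.33 (exact permutation test, adjusted p = 0.0162). The alfalfa hay minus corn stover difference fell to 0.38 (exact permutation test, adjusted p = 0.506) without that library, and became 1.03 (adjusted p = 0.0325) without corn stover library 5. Corn stover minus rice straw as a difference of medians was -1.42 and did not pass (exact permutation test, adjusted p = 0.0649). As in jejunum, that test could not pass here even for fully separated groups of 6.

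The 3 mammary libraries with the highest ratios were the 3 with the fewest reads. Alfalfa hay library 1 had a ratio of 626 with 937556 mapped reads, rice straw library 1 had 497 with 1875290, and rice straw library 5 had 430 with 1527304. Their miR-145 rested on 315, 665 and 667 reads, which gave 336 CPM (exact 95% binomial interval 299.9 to 375), 355 CPM (328 to 383) and 437 CPM (404 to 471), intervals that cover counting error only. The next ratio down was 193, in rice straw library 3 with 8364602 reads. In these 3 libraries the 10 most abundant miRNAs took 80.7% to 87.0% of the reads, against 65.4% to 76.5% in the other 15, and 16 to 45 of the listed miRNAs were at 0, against 0 to 3. Their miRNAs that regulate vascular smooth muscle, a list of 8 led by miR-21-5p and miR-26a, summed to 44249 to 47124 CPM against 85605 to 168330 CPM, and their red blood cell miRNAs to 3251 to 4241 CPM against 1070 to 3360 CPM. The part of depth and of these other miRNAs in the ratio was not tested.

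**Figure D3:**
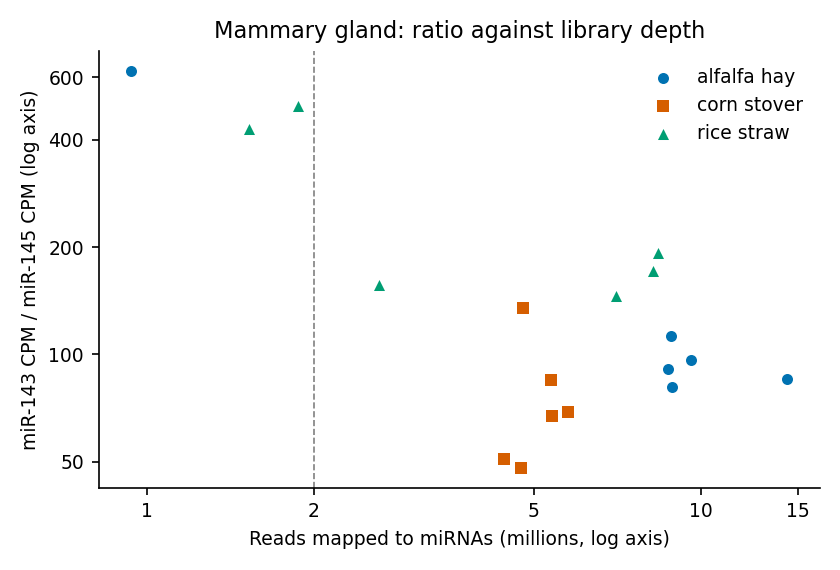
Reads of miR-143 per read of miR-145 in the 18 mammary gland libraries against mapped reads, both on log axes, coloured by diet, with a dashed line at 2000000 reads. The 3 libraries left of the line hold the 3 highest ratios, 430 to 626, and the other 15 lie between 48.0 and 193.

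Without these 3 libraries the ratio remained lower with corn stover than with rice straw (-1.22, exact permutation p = 0.00952, adjusted p = 0.0476). Rice straw then stood above alfalfa hay by 0.84, which did not pass after adjustment (alfalfa hay minus rice straw -0.84, SE 0.12, exact permutation p = 0.0159, adjusted p = 0.0595). That test cannot decide here, since its p is already the smallest that 5 against 4 libraries allow. Between tissues, the mammary ratio was then 0.43 above that of duodenum (duodenum minus mammary gland -0.43, permutation test, adjusted p = 0.0281), and liver stood 1.16 above mammary gland (adjusted p = 5.00e-05). Across the 18 mammary libraries the Pearson r of log2 ratio with log2 mapped reads was -0.69, and across the 15 it was 0.11. Both are given as a description, since diets differ in depth.

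Whether the diets acted differently in different tissues was tested as the interaction of tissue and diet in limma over all 90 libraries. Both miRNAs passed, miR-143 with an adjusted p of 0.00837 and miR-145 with 0.0186, as did 45.7% of the 289 miRNAs. For miR-145 the call was lost under TMM (limma adjusted p = 0.156), upper-quartile scaling (0.263), with miR-143 taken out of the total (0.0530) and without the 3 libraries under 2000000 reads (0.0564). Without the mammary gland neither passed (limma adjusted p = 0.120 for miR-143 and 0.161 for miR-145). Of the total variance of the log2 values, tissue took 37.9% for miR-143 and 68.7% for miR-145, against a median of 63.2% over all miRNAs. Diet took 2.68% and 0.643%, their interaction took 15.3% and 7.06%, and the libraries within a group took 44.1% and 23.6%. Only 47 of the 289 miRNAs had a smaller tissue share than miR-143.

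The correlation of the pair across animals was measured in each tissue over its 18 libraries. In duodenum the Pearson r of log2(CPM + 1) was 0.53 (permutation p = 0.0249, adjusted over 5 tissues 0.124) and Spearman's rho was 0.47 (permutation p = 0.0494, adjusted 0.182). In liver r was 0.21 (permutation p = 0.391, adjusted 0.511) with rho 0.38 (p = 0.120, adjusted 0.200), and in rumen r was 0.08 (permutation p = 0.766, adjusted 0.766) with rho -0.01 (p = 0.974). Jejunum gave r -0.21 (permutation p = 0.409, adjusted 0.511) with rho -0.13 (p = 0.593, adjusted 0.741), and mammary gland gave r -0.42 (permutation p = 0.0864, adjusted 0.216) with rho -0.43 (p = 0.0729, adjusted 0.182). No tissue passed, and with 18 libraries weak relations would not have been detectable.

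Without the 2 libraries farthest from the median of miR-143, r was -0.50 in mammary gland, 0.30 in duodenum, 0.27 in rumen, 0.04 in liver and -0.02 in jejunum, and none passed (lowest permutation adjusted p = 0.249). The duodenum relation thus rested in part on rice straw library 5 and corn stover library 6. Taking miR-143 out of the total, which removes its own share from the scaling, gave r 0.62 in duodenum (permutation adjusted p = 0.0291). Subtracting the mean of each diet turned the jejunum value to 0.41 (permutation adjusted p = 0.236) and left -0.11 in mammary gland, 0.43 in duodenum, 0.14 in liver and -0.03 in rumen. Within single diets r ranged from -0.44 to 0.83 over 15 sets of 6 libraries, with the highest in jejunum corn stover (0.83, exact permutation p = 0.0333), duodenum corn stover (0.81, exact p = 0.0625) and liver corn stover (0.77, exact p = 0.0792), each with an adjusted p of 0.396. In mammary gland the 15 libraries over 2000000 reads gave r -0.03 (permutation p = 0.920).

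**Figure D4:**
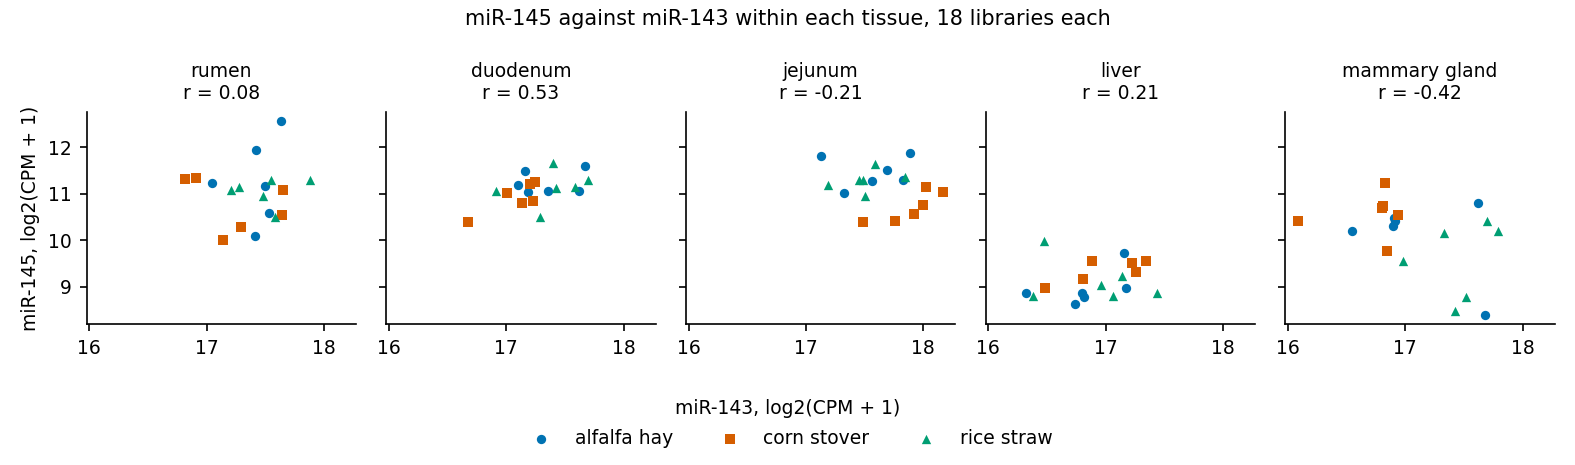
log2(CPM + 1) of miR-145 against that of miR-143 in the 18 libraries of each tissue, 1 panel a tissue, 1 point a library coloured by diet, with Pearson r in the panel. r runs from -0.42 in mammary gland to 0.53 in duodenum, and in jejunum the corn stover points lie to the lower right of the others.

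Other pairs of miRNAs from 1 transcript served as a comparison, as a description without a test. Over the 5 tissues the median within-tissue r was 0.08 for miR-143 with miR-145. It was 0.28 for miR-182 with miR-183, 0.37 for miR-192 with miR-194, 0.51 for miR-199a-3p with miR-214 and 0.54 for miR-195 with miR-497. It was 0.61 for miR-200a with miR-200b, 0.64 for miR-221 with miR-222, 0.66 for miR-23b-3p with miR-27b and 0.89 for miR-144 with miR-451. The smooth muscle pair thus had the lowest median of the 9 pairs listed. It also had the widest range of tissue mean log2 ratios, 1.59, next to 1.53 for miR-23b-3p with miR-27b and 1.09 for miR-195 with miR-497, while that of miR-192 with miR-194 was 0.27. In jejunum the log2 ratio with corn stover less the mean of the other diets was 1.01 for the smooth muscle pair. It was 0.87 for miR-182 with miR-183, -0.60 for miR-192 with miR-194 and -0.36 to 0.17 for the rest. Corn stover minus rice straw in mammary gland was -1.71 for the smooth muscle pair. Next in size were -1.16 for miR-192 with miR-194 and 0.975 for miR-199a-3p with miR-214. The pairs share libraries, depth and tissues, and members of some of them share reads with near-identical relatives, since reads could map to several precursors.

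**Figure D5:**
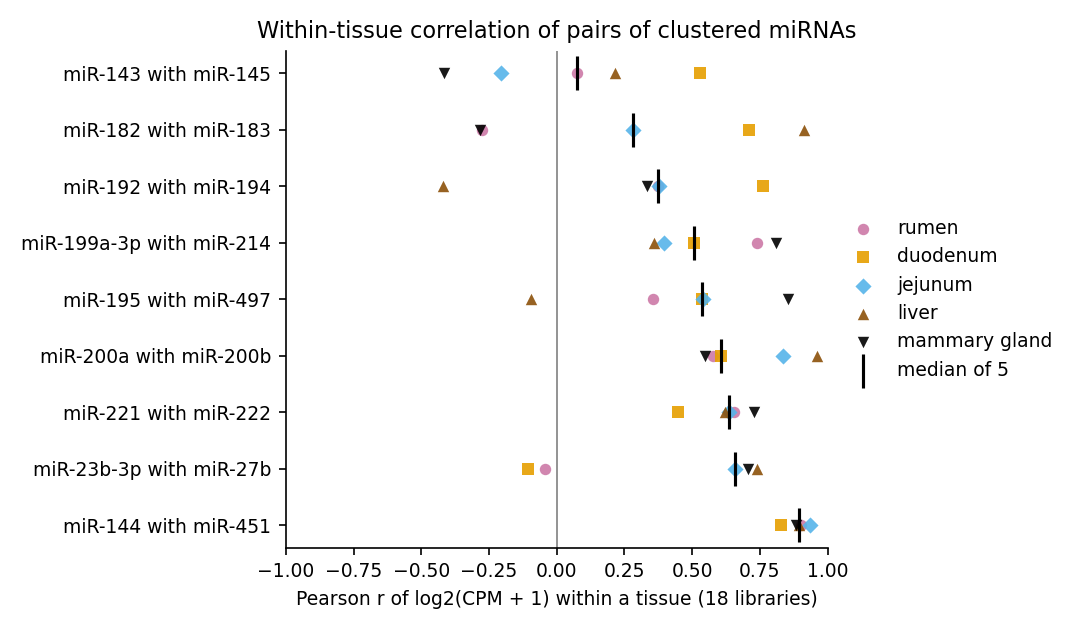
Pearson r of log2(CPM + 1) between the members of 9 miRNA pairs, 1 point for each of 5 tissues (18 libraries each) and a bar at the median over tissues. The median of miR-143 with miR-145 is 0.08 and that of miR-144 with miR-451, the red blood cell pair, is 0.89.

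The 2 miRNAs also differed in how far libraries of the same tissue and diet spread. The residual SD on the log2 scale was 0.27 for miR-143 and 0.63 for miR-145 in rumen, against a median of 0.38 over miRNAs of at least 10 CPM, and 0.36 and 0.74 in mammary gland, against 0.74. In duodenum (0.25 and 0.32), jejunum (0.25 and 0.30) and liver (0.35 and 0.37) the 2 were closer. In mammary gland only 11 of 239 miRNAs had a smaller residual SD than miR-143.

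The nearest patterns to each were found by the mean r over the 5 tissues among 193 miRNAs of at least 10 CPM. For miR-143 the highest were miR-10b (0.50), miR-410 (0.37), miR-204 (0.37), miR-486 (0.31) and miR-181d (0.30), of which miR-10b and miR-204 had a positive r in all 5 tissues. The lowest were miR-505 (-0.56), miR-30e-5p (-0.55), miR-192 (-0.50), miR-425-5p (-0.47) and miR-19a (-0.47), each negative in all 5. miR-192 is a main miRNA of gut epithelium, and its r with miR-143 was -0.83 in jejunum and -0.70 in duodenum, where both are large shares of the same total. miR-145 was number 59 in this list, with a mean r of 0.04. For miR-145 the highest were miR-29b (0.70), miR-455-3p (0.68), miR-23a (0.62), miR-365-3p (0.61) and miR-345-5p (0.59), each positive in all 5 tissues. The lowest were miR-423-5p (-0.34), miR-423-3p (-0.27), miR-194 (-0.26), miR-6529 (-0.23) and let-7f (-0.23). miR-143 was number 142 for miR-145. None of the 5 nearest was common to both lists. Over the 5 tissue means themselves r between the pair was 0.88, from 5 points that share the libraries of the same cows.

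Muscle miRNAs were set beside the pair, from a list of 8 of which 5 were measured. miR-133a, abundant in skeletal and cardiac muscle and present in smooth muscle, had medians of 49.8, 213 and 275 CPM in rumen, duodenum and jejunum, and of 156 and 126 CPM in liver and mammary gland. miR-490, found in gut smooth muscle, had medians of 1.42, 64.1, 94.8, 11.8 and 1.06 CPM in the same order, and miR-1 had 1.22, 16.2, 15.3, 2.07 and 4.23 CPM. miR-133b had 1.02, 5.17, 6.28, 2.08 and 2.26 CPM, and miR-499, a miRNA of striated muscle, had 17.2, 10.4, 12.2, 3.81 and 12.8 CPM. Rumen was thus low for 4 of the 5, all but miR-499. The sums of the 5 were 320 to 652 CPM in jejunum, 179 to 585 in duodenum, 98.8 to 303 in liver and 48.2 to 146 in rumen. They were 23.6 to 617 CPM in mammary gland, where 1 rice straw library had 429.5 CPM of miR-1.

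In the same limma fit, 4 of the 5 muscle miRNAs were lower and 1 (miR-499) higher in rumen than in duodenum and than in jejunum, with a median log2 difference of -2.04 and -2.45, whereas miR-145 did not pass there. Of all miRNAs 71.6% and 74.0% were called in these comparisons, so counts of 4 or 5 of 5 are near the background, as they are against liver (82.0% in duodenum, 83.0% in jejunum) and mammary gland (79.9% and 78.5%). All 5 were higher in duodenum and in jejunum than in liver, by a median of 1.24 and 1.39, as was miR-145, and between duodenum and jejunum 0 of 5 and not miR-145 were called (median of the list -0.35). Against mammary gland 4 of 5 were higher in duodenum and 4 of 5 in jejunum. Rumen against liver gave 1 higher and 3 lower, while miR-145 was higher. The sums of the 10 stroma miRNAs overlapped between all tissues, at 3306 to 26042 CPM in mammary gland, 8708 to 18424 in liver, 8004 to 17672 in jejunum, 7963 to 15374 in duodenum and 7001 to 21468 in rumen, but single members differed in both directions. Between rumen and liver 1 was called higher and 4 lower in rumen, where 83.0% of all miRNAs were called. Against mammary gland 4 were higher and 5 lower in rumen, 5 higher and 4 lower in duodenum, and 5 higher and 4 lower in jejunum. The 8 miRNAs that regulate vascular smooth muscle summed to 120919 to 249476 CPM in rumen and 83164 to 110863 CPM in liver, with no overlap. Of the 289 single miRNAs, 24.6% had every liver library below every rumen library. Which cells the sum came from was not tested.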

How the data were processed

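The 90 libraries were grouped by the tissue and diet of their labels, 6 a group. The authors filtered reads with CASAVA 1.8, trimmed adaptors with sRNAbench, aligned reads longer than 15 nt to bovine miRBase precursors with up to 2 mismatches and 10 mappings, and deposited CPM values, each miRNA's reads over the total mapped to all annotated miRNAs. The study calls the deposited files raw counts, but the values are not whole numbers and add up as CPM, and were used as CPM. CPM are shares, so 1 abundant miRNA lowers all others, and multiple mapping can share reads between near-identical miRNAs. In all 90 libraries 100% of the values were whole multiples, within 0.1, of what 1 read was worth, so reads and depth were recovered, and 3 reads were worth 0.192 to 3.20 CPM.

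log2(CPM + 1) was fitted with limma 3.58.1 (lmFit, and eBayes with trend) in R 4.3.3 over all listed miRNAs, and p-values were adjusted by Benjamini-Hochberg and called below 0.05. Tissues were compared with diet as a term, diets within a tissue, and their interaction over all libraries. The log2 ratio was compared by permutation (scipy 1.17.1), exact between diets and with 100000 resamples between tissues and for correlations. The alternatives were pseudocounts of 0.1 and 5, TMM and upper-quartile scaling, miR-143 taken out of the total, miRNAs of at least 10 CPM, edgeR 4.0.16 and DESeq2 1.42.0 on the recovered reads, a replicate block, each diet alone and each library left out. The named miRNAs were the pair, muscle miRNAs, the 5 nearest and 5 farthest patterns, and co-transcribed pairs. Other miRNAs come from the marker lists. The members and lists were chosen with earlier results of these data known. The fits were tested on simulated data. No mature sequence was available to the analysis, and none is printed.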

Additional observations from a re-analysis of the deposited data

Results flagged for a closer look

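Among 6 libraries of a tissue and diet, 4 values lay apart from the other 5 by Dixon's test at the 95% level, out of 45 sets tested, of which chance alone would mark about 1 in 20. miR-143 was 69396 CPM in mammary gland corn stover library 4, with the others at 114358 to 125803 CPM. miR-145 was 842 CPM in liver alfalfa hay library 2, with the others at 394 to 499.9 CPM, and 1016 CPM in liver rice straw library 6, with the others at 445 to 599.6 CPM. The miR-143 to miR-145 ratio was 626 in mammary gland alfalfa hay library 1, the library with the fewest reads of all, with the others at 81.0 to 113. The diet differences were not the same in all tissues by the limma interaction test, with an adjusted p of 0.00837 for miR-143 and 0.0186 for miR-145. The same test called 45.7% of the 289 miRNAs. For miR-145 the call was lost under TMM and upper-quartile scaling and in edgeR, and neither miRNA passed without the mammary gland.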

How the results depend on the processing

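In CPM, miR-143 passed in 7 of 10 tissue comparisons. It passed in 3 under TMM, 2 under upper-quartile scaling, 3 in edgeR, 2 in DESeq2, 4 within alfalfa hay and 4 within rice straw. Its rumen minus duodenum difference turned to -0.15 under TMM, -0.071 under upper-quartile scaling, -0.15 in edgeR and -0.15 in DESeq2. Rumen minus liver turned to -0.24 under upper-quartile scaling and -0.12 in DESeq2, and rumen minus mammary gland to -0.020, -0.13 (edgeR) and -0.27 (DESeq2). Duodenum minus liver turned to -0.17 under upper-quartile scaling, and duodenum minus mammary gland to -0.13 in DESeq2 and -0.073 within rice straw. Liver minus mammary gland turned to 0.055 under TMM, 0.22 under upper-quartile scaling and 0.28 within corn stover. The cause was not tested. miR-145 passed in 7 comparisons and in 4 within corn stover, and its differences among the gut tissues, none of them called, turned to 0.030 (rumen minus duodenum, alfalfa hay), 0.043 (rumen minus jejunum, corn stover) and 0.20 (duodenum minus jejunum, corn stover).

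Between diets, miR-143 passed in 1 of 15 comparisons in CPM, in 3 under TMM, 2 under upper-quartile scaling, 3 in edgeR and 3 in DESeq2, and in 0 to 2 with 1 library left out (0 without mammary rice straw library 5 or corn stover library 4, and 2 without jejunum rice straw library 5, alfalfa hay library 1 or corn stover library 2). Its jejunum alfalfa hay minus rice straw value, not called, ran from -0.0061 to 0.15 with 1 library left out. miR-145 passed in 2, in 1 under TMM, 1 with miR-143 taken out of the total, 1 in edgeR and 1 in DESeq2, and in 2 to 3 with 1 library left out. Its mammary alfalfa hay minus corn stover value turned to 0.21 under upper-quartile scaling and 0.011 in DESeq2. The interaction adjusted p in limma rose for miR-145 to 0.156 under TMM, 0.263 under upper-quartile scaling and 0.0530 with miR-143 taken out of the total, and was 0.111 in edgeR. Chosen after seeing the data, the fit without the 3 mammary libraries under 2000000 reads gave 0.0564 for miR-145, and the fit without the mammary gland gave 0.161 for miR-145 and 0.120 for miR-143.

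The ratio passed in 3 of 15 diet comparisons and in 3 to 4 with 1 library left out. It passed in 0 by the difference of medians, a test that could not pass here even for fully separated groups. Its log2 rumen minus jejunum difference turned to 0.029 by medians, 0.059 within alfalfa hay and 0.22 within rice straw, and duodenum minus jejunum to 0.015 within alfalfa hay and 0.028 within rice straw. Against mammary gland within corn stover, rumen turned to 0.32, duodenum to 0.012 and jejunum to 1.02. With the mammary libraries under 2000000 reads included, liver minus mammary gland turned to -0.079 within rice straw. Its jejunum alfalfa hay minus rice straw value was 0.049 by medians and ran from -0.21 to 0.032 with 1 library left out. The correlation passed in 0 of 5 tissues, and in 1 with miR-143 taken out of the total. With diet means subtracted, r turned to -0.027 in rumen and 0.41 in jejunum.

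Libraries of the same diet and number in 2 tissues had a correlation of their deviations over 0.1 in 82 of 180 pairs, and 54 correlated best with their own number among the 6 of the diet, where 30 would without any relation. For duodenum with jejunum these were 14 and 11 of 18 pairs, against 3 without any relation, a hint from the data that the numbers may mark the same cow there. Since not every pair was over 0.1, the numbers were not taken to pair the libraries. With the replicate block miR-143 passed in 7 tissue comparisons and 1 diet comparison and miR-145 in 7 and 3, the added one being mammary corn stover minus rice straw (limma adjusted p = 0.0397). Between diets the same number joins different cows, which the labels do not match. Their deviations had a median r from -0.04 in liver to 0.19 in rumen, and 0.04 in mammary gland. The block has no known basis between diets, and no conclusion is drawn from the added call. The ratio passed in 5 tissue comparisons and in 0 diet comparisons, where the exact sign-flip test of 6 pairs cannot go below 0.0312 and gave an adjusted p of 0.156 at best.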
